A study of Mus musculus with 4 samples.

Results

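The Hoxa cluster on mouse chromosome 6 was followed through its genes Hoxa3, Hoxa4, Hoxa5, Hoxa6, Hoxa7, Hoxa9, Hoxa10, Hoxa11 and Hoxa13 and the noncoding transcript Mira. These 10 rows were taken by gene symbol from the 24453 genes of the deposited tables, and all 10 were found. RNA had been sequenced from EpCAM-positive cells sorted from mouse tongue epithelium on embryonic day 16, in 2 libraries labelled control and 2 labelled Ring1a/b 2KO. The 2KO genotype is Ring1a-/- Ring1bfl/fl K14-Cre+, that is, loss of Ring1a and a floxed Ring1b cut by a Cre recombinase under the promoter of the keratin gene Krt14. Cells that never made Krt14 would keep Ring1b, and the alleles of the control animals are not given in the labels. The tissue was the tongue without the circumvallate papillae at its back.

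Hox genes encode homeodomain transcription factors that give cells their position along the body axis. Each cluster is read in order, the genes at its 3′ end in anterior tissues and those at its 5′ end in posterior tissues, the limbs and the genital bud. Polycomb repressive complex 1, whose catalytic subunits are Ring1 (Ring1a) and Rnf2 (Ring1b), is known to keep Hox genes silent outside their domains, and the front of the tongue forms mainly from the first pharyngeal arch, a territory without Hox expression. The comparison asked what the complex does in this epithelium.

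The libraries held between 16256569 and 20624055 counts. Neither targeted gene was lower in the 2KO-labelled libraries: Ring1 stood at 9.02 and 8.57 CPM (counts scaled to library size) in control and at 16.8 and 15.0 CPM in 2KO (edgeR quasi-likelihood adjusted p = 0.101), and Rnf2 at 34.0 and 51.3 against 62.9 and 62.4 CPM (adjusted p = 0.126), which passed without control replicate 2 (adjusted p = 0.00853). A gene-level count does not show a deleted exon, so the genotype was not checked by these values, and "2KO" below means the libraries so labelled. The epithelial marker Epcam had between 3222 and 4947 counts in every library. The ribosomal precursor Rn45s took 15.3% to 16.7% of control counts and 20.2% to 22.9% of 2KO counts. Nothing in the labels ties a replicate to its own embryo or litter. The p-values therefore cover only how these 4 libraries spread, and that spread may be technical.

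In the control epithelium the cluster was close to silent, and in the 2KO epithelium reads appeared along its whole length. The 10 rows together had 3 and 67 counts in the control libraries and 936 and 1533 in the 2KO libraries. Of the control counts, 61 fell on Hoxa3 and 5 on Hoxa4, all in control replicate 2, and no other row had more than 2 counts in a control library. In 2KO every one of the 10 rows had counts in both libraries, and for all 10 both 2KO libraries lay above both control libraries, beside 26.8% of the 19211 genes with a count. The test, edgeR's quasi-likelihood test with Benjamini-Hochberg adjustment over 15336 genes and a threshold of 0.05, called 7 of the 9 rows that passed its filter higher: Hoxa5, Mira, Hoxa7, Hoxa9, Hoxa10, Hoxa11 and Hoxa13. Over all genes tested it called 7.00% higher and 4.92% lower. Hoxa3 and Hoxa4 did not pass, Hoxa6 had too few counts for the filter, and edgeR called 0 rows lower (0 at an unadjusted p under 0.05). DESeq2 called 7 rows higher and 0 lower, beside 8.81% and 6.24% of all genes, and limma-voom 6 and 0, beside 7.25% and 5.58%. A silent gene enters the test only through the group in which it is high, so the tested rows near silent in control were bound to differ in that direction. The direction of Hoxa3, with 61 counts in control replicate 2, was not fixed in this way. Rows with 0 control counts and counts in both 2KO libraries likewise lie above control by construction. Of the 62 tested genes with 0 counts in both control libraries, 46 were called higher. These 62 include Hoxa5, Mira, Hoxa11 and Hoxa13, all of them called. Hoxa3, Hoxa4, Hoxa7, Hoxa9 and Hoxa10 had control counts and are not among the 62. The median log2 fold change of the 9 tested rows was 8.47, or 5.48 with the rows of 0 to 3 control counts at their bound or ratio; over all genes tested it was 0.0065.

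**Figure D1:**
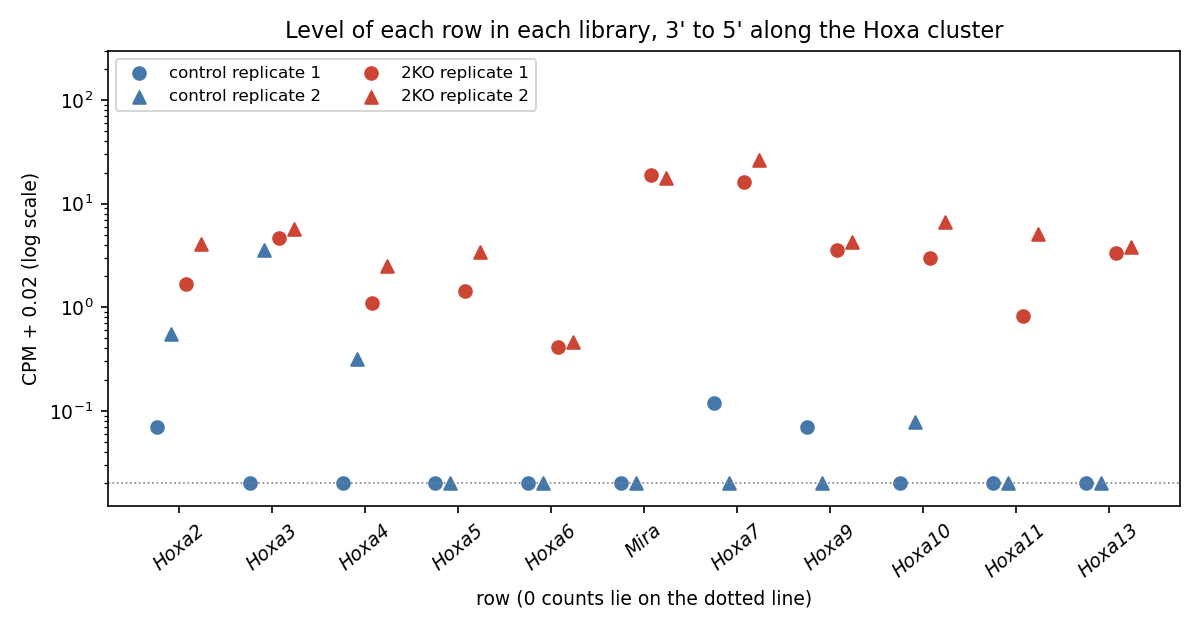
Level of 11 rows of the Hoxa cluster (x axis, in order from the 3′ end to the 5′ end) in each library, as CPM plus 0.02 on a log axis; points are single libraries, blue for control and red for 2KO, and 0 counts lie on the dotted line. For each row both 2KO points lie above both control points, and the control point nearest to its 2KO points is that of Hoxa3 in control replicate 2, at 3.58 CPM.

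All the coding members are transcribed from the minus strand, so that the cluster runs from Hoxa13 at the high coordinates down to its 3′ end. In the RefSeq annotation of GRCm38 (mm10), Hoxa13 lies at 52258853 to 52260880, Hoxa11 at 52242105 to 52245810, Hoxa10 at 52231197 to 52240854 and Hoxa9 at 52223097 to 52227370. Hoxa7 follows at 52215623 to 52218573, Mira at 52214491 to 52215288, Hoxa6 at 52204858 to 52208672, Hoxa5 at 52201754 to 52204587 and Hoxa4 at 52189682 to 52191703. Hoxa3 spans 52169059 to 52213067, because 1 of its start sites lies beyond Hoxa6, so that Hoxa4, Hoxa5 and Hoxa6 sit inside its span.

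Promoter sequences were looked at because the called genes rose from a common silent state and because Polycomb complexes are known to gather at unmethylated CpG-rich promoters. RefSeq windows of GRCm38.p6, from 250 bases before to 50 after a start site, were matched for 9 of the 10 members (10 windows, 2 of them of Hoxa10); Hoxa4 had none. Below are bases before the start site that no annotated exon covers, 5′ to 3′ in the direction of transcription, with each CpG in capitals. Hoxa7 is shown as the coding member with the highest level per length, Hoxa13 as the next, Hoxa5 as the called member nearest the 3′ end and Hoxa9 as the coding member whose window was poorest in CpG.
Hoxa5 chr6:52204588-52204837, minus strand: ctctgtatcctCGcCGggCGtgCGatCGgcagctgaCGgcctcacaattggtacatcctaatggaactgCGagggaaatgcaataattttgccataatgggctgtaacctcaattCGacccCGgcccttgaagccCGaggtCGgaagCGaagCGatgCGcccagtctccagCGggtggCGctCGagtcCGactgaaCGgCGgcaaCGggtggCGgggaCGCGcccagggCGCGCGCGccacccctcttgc
Hoxa7 chr6:52218712-52218823, minus strand: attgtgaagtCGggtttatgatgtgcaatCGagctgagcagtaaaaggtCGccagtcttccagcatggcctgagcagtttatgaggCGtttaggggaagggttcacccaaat
Hoxa9 chr6:52227371-52227620, minus strand: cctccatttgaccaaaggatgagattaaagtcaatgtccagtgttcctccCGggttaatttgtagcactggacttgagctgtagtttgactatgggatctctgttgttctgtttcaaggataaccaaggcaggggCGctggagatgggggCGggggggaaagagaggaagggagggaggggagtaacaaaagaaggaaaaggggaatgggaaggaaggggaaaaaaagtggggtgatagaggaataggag
Hoxa13 chr6:52260881-52261130, minus strand: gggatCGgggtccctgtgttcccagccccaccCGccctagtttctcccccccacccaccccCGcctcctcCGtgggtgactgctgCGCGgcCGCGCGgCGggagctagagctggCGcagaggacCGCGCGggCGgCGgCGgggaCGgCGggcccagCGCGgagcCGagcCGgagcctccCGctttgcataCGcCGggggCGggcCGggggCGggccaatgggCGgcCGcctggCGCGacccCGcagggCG

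The printed stretch of Hoxa13 holds 35 CpGs in 250 bases and that of Hoxa5 28 in 250, against 3 in 250 for Hoxa9 and 4 in 112 for Hoxa7. Over the full windows the ratio of observed to expected CpG was 0.918 for Hoxa13, 1.02 for Hoxa5, 0.405 for Hoxa7 and 0.280 for Hoxa9, with a median of 0.722 over the members' windows and 0.384 over all 32851 windows. Of the 10 windows 6 were CpG-rich (a ratio over 0.6 and over 50% G and C), beside 33.3% of all windows. These 6 belonged to Hoxa3, Hoxa5, Hoxa6, Hoxa10, Hoxa11 and Hoxa13, so the called members fell on both sides of that line: Hoxa7, the coding member highest per length, was outside it. Of the Hoxa10 windows only 1 was CpG-rich (ratio 0.853), and that at 52240805 to 52241104 was not (0.596). On either strand TATAAA was in 1 window (13.6% of all windows), CCAAT in 5 (37.4%), GGGCGG in 4 (35.7%, the core of Sp1-type sites, which itself holds a CpG) and TTTATG, a Cdx- and Hox-like core, in 1 (11.9%), that of Hoxa7. TGATTNAT, a joint Pbx and Hox core, was in 0 (3.22%), which says only that these letters are not in these windows. The window of Mira had a ratio of 0.0975 and lies, in the GENCODE annotation, within the last exon of Hoxa7.

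The central stretch, Mira and Hoxa7, carried most of the reads. Mira is a noncoding RNA described in mouse embryonic stem cells as acting in cis, with an MLL methyltransferase, on Hoxa6 and Hoxa7. It had 0 counts in both control libraries and 332 and 360 counts in 2KO (18.8 and 17.8 CPM). The 2 groups are far apart and the 2KO libraries nearly level, so that Mira was higher by a factor of at least 228, taking 3 counts over both control libraries as the floor (adjusted p = 6.94e-05, edgeR quasi-likelihood test). Hoxa7, a trunk-level factor also known from blood cell progenitors, had 2 and 0 control counts and 285 and 531 in 2KO (0.0980 and 0 against 16.2 and 26.3 CPM). Its groups do not overlap either, and 2KO exceeded control 404 times (95% interval from counting error, 111 to 3339; edgeR adjusted p = 7.40e-05).

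These 2 rows are not independent measurements. The 798 bases of Mira lie on the same strand as Hoxa7 and begin 334 bases past its end in RefSeq, whereas GENCODE extends the last exon of Hoxa7 (52214491 to 52216030 in transcript Hoxa7-205) over all 798 bases. Of these bases, 586 also lie under an exon of the antisense transcript Hoxaas3. Which annotation the authors counted on is not given in the sources used here, and reads of a longer Hoxa7 transcript and reads of Mira cannot be told apart in these tables. Summed as a single row, Hoxa7 and Mira reached 35.0 and 44.1 CPM in 2KO, and the log2 fold change was 9.37 (adjusted p = 2.02e-05, an alternative added after the data were seen). They made up 65.9% and 58.1% of the counts of the 10 rows in 2KO. Mira held 53.8% of the pair's counts in 2KO replicate 1 and 40.4% in replicate 2.

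Levels between genes were set side by side only per length, on the deposited FPKM values (reads scaled to transcript length and library depth). In 2KO, Mira stood at 19.9 ± 3.15 FPKM and Hoxa7 at 11.4 ± 4.38 (SD, n = 2, as for every mean here), and their libraries did not overlap. Since reads of these 2 rows cannot be told apart, their order is uncertain. The FPKM of Mira also fell from 22.2 in 2KO replicate 1 to 17.7 in replicate 2, while its counts were 332 and 360. Hoxa13 followed at 2.99 ± 0.0834 FPKM, below both Hoxa7 libraries. Hoxa10, with 1.49 and 2.92 FPKM in the 2KO libraries, and Hoxa3, at 2.18 ± 0.277 FPKM, came next and overlapped each other. Hoxa4, Hoxa11, Hoxa9 and Hoxa5 had means between 1.22 and 1.44 FPKM, below both Hoxa3 libraries in the case of Hoxa4, and overlapped one another in that order. Hoxa6 was lowest, at 0.636 ± 0.232 FPKM, overlapping Hoxa5. The level did not run evenly along the cluster: the peak was in its middle, directly beside the lowest member, Hoxa6. Spearman's rho between gene number and mean 2KO FPKM over the 9 Hoxa genes was 0.28, given as a description of genes that share these libraries. In control the FPKM table lists 0 in both libraries for 7 of the 10 rows, among them Hoxa7 and Hoxa9, which had 2 and 1 counts in the count file. The exceptions were Hoxa3 at 0 and 1.70, Hoxa4 at 0 and 0.302, and, with a value in 1 library, Hoxa10 at 0 and 0.0294 FPKM.

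**Figure D2:**
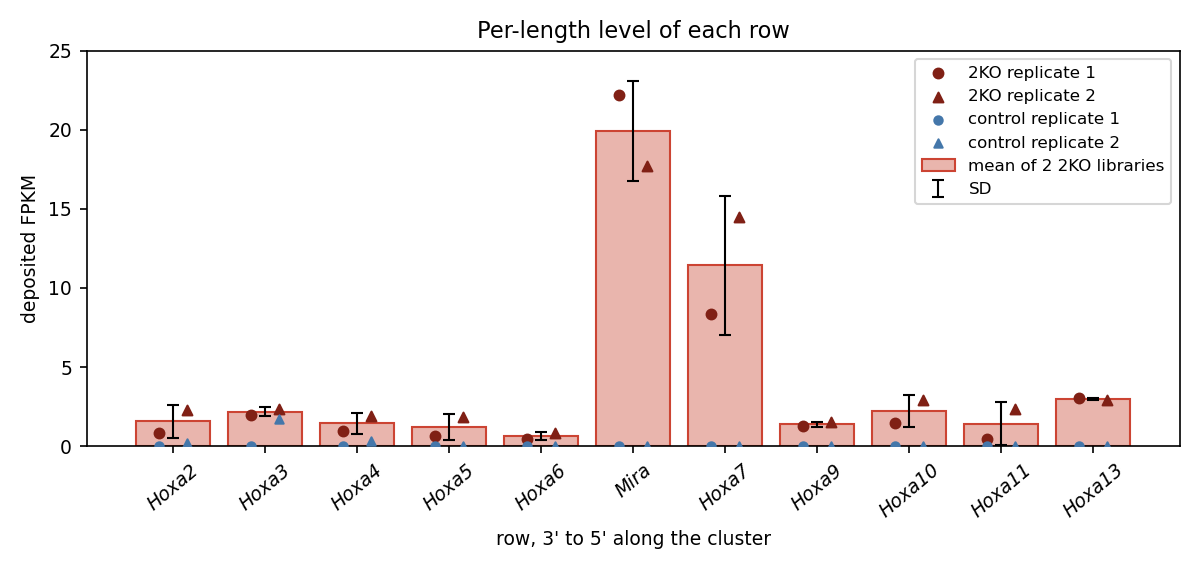
Deposited FPKM of 11 rows in order along the cluster; bars are means of the 2 2KO libraries, error bars their SD, and symbols single libraries (dark red for 2KO, blue for control). Mira at 19.9 and Hoxa7 at 11.4 FPKM stand above all other rows, which reach at most 3.05 FPKM in a 2KO library.

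The 5′ members, which in the normal embryo mark the posterior trunk, limbs and genital region, all rose from at most 1 count in control to the levels that follow. Hoxa9, known from blood progenitors and the trunk, had 1 and 0 counts in control and 62 and 86 in 2KO (3.52 and 4.25 CPM). The 2KO libraries were close to each other, with a ratio to control of 146 (counting interval 25.9 to 5822, edgeR adjusted p = 0.00580). Hoxa10, which patterns the uterus and lumbar vertebrae, had 0 and 1 counts in control and 52 and 134 in 2KO (2.95 and 6.63 CPM). Its 2KO libraries were further apart, and the ratio was 184 (32.6 to 7307, edgeR adjusted p = 0.00437). Hoxa11, a gene of the forearm and lower leg, had 0 counts in control and 14 and 102 in 2KO (0.794 and 5.05 CPM). It was at least 38.3-fold higher (edgeR adjusted p = 0.0162), the call nearest the threshold, and limma-voom did not call it (adjusted p = 0.0520). Without 2KO replicate 2, which holds 102 of its 116 counts, it fell under the filter and was not tested. Exons of Hoxa11 share up to 646 bases with the antisense transcript Hoxa11os, and without a stated strand setting the reads of the pair cannot be told apart. Hoxa13, the gene of hands, feet and the genital bud, had 0 counts in control and 59 and 76 in 2KO (3.35 and 3.76 CPM). The 2KO libraries were close to each other, at least 44.5-fold higher (edgeR adjusted p = 0.00537).

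Among the members on the 3′ side of Mira, only Hoxa5 was called. Hoxa5, needed for the airway and for cervical and thoracic vertebrae, had 0 counts in control and 25 and 69 in 2KO (1.42 and 3.41 CPM), at least 31.0-fold higher (edgeR adjusted p = 0.0135). The call ended without 2KO replicate 2 (adjusted p = 0.115). Hoxa6, next to Mira, had 0 counts in control and just 7 and 9 in 2KO (0.397 and 0.445 CPM). Its libraries were level but too low for the filter, and against the floor it was at least 5.28-fold higher. With no filter on low counts it was tested and did not pass (edgeR adjusted p = 0.237). Hoxa4, a factor of the neck vertebrae, had 0 and 5 counts in control and 19 and 50 in 2KO (0 and 0.293 against 1.08 and 2.47 CPM). The groups did not overlap, and the log2 fold change of 3.60 (standard error 1.43) did not pass (edgeR adjusted p = 0.129).

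Hoxa3 was the member with a clear signal in a control library. Hoxa3, needed for the thymus, parathyroid and other third-arch derivatives, had 0 and 61 counts in control and 81 and 116 in 2KO. In CPM these were 0 and 3.58 against 4.59 and 5.74, so that control replicate 2 lay close under the 2KO libraries while control replicate 1 had no read. The log2 fold change was 1.54 with a standard error of 1.21 (edgeR adjusted p = 0.456). Without control replicate 2, Hoxa3 and Hoxa4 were both called higher (log2 fold changes of 9.65 and 8.11, adjusted p = 3.77e-05 and 0.0286) and 9 of the 9 members tested were called, beside 8.05% of all genes tested in that fit. Both rows had 0 counts in control replicate 1, the only control library left in that fit, and the 10 rows together had 3. The members therefore entered that test only through 2KO, and their direction was fixed, that of Hoxa3 included. The calls of that fit thus add no evidence on the direction of Hoxa3 or Hoxa4. Hoxa3 exons overlap other annotated exons, among them 297 bases shared with the minus-strand gene model Gm28308 and 503 with the antisense Hoxaas2, so its value is uncertain to that extent.

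Hoxa2, on the 3′ side of the members, was also higher in control replicate 2 than in control replicate 1. Hoxa2, the selector of the second arch, had 1 and 9 control counts and 29 and 82 in 2KO (adjusted p = 0.0931). It did not pass in edgeR, while DESeq2 called it (adjusted p = 0.0400), as did edgeR with no filter on low counts (adjusted p = 0.0269). It was also called without control replicate 2 (adjusted p = 0.0116). With 1 control count left, the direction of Hoxa2 in that last fit was fixed as well. Summed from Hoxa2 to Hoxa5, the level was 0.0490 CPM in control replicate 1, 4.40 in control replicate 2, and 8.73 and 15.7 in 2KO. From Hoxa6 to Hoxa13 it was 0.147 and 0.0587 CPM in control and 27.2 and 46.4 in 2KO. Within the Hoxa cluster control replicate 2 stood apart over Hoxa2, Hoxa3 and Hoxa4, and not from Hoxa6 to Hoxa13. Most of that was Hoxa3, with 61 counts there beside 9 of Hoxa2 and 5 of Hoxa4. Hoxa5 had 0 counts in both control libraries. In the other clusters control replicate 2 had more counts than control replicate 1 for Hoxb3 (80 against 14), Hoxb4 (19 against 2) and Hoxc5 (18 against 0), and also for the 5′ genes Hoxc10 (5 against 0) and Hoxc12 (10 against 0). The 5′ gene Hoxc13, expressed in both, had 410 against 302 counts (24.1 against 14.8 CPM). Control replicate 2 had fewer counts for Hoxb2 (1 against 11), Hoxd4 (0 against 2), Hoxd11 (0 against 4), Hoxd3 (0 against 1) and Hoxd9 (0 against 1). It also held more RNA of skeletal muscle: 6 muscle markers summed to 100.5 CPM there, against 10.8 in control replicate 1 and 8.22 and 16.9 in 2KO. The muscle myosin Myh3 had 1138 counts in that library and 51 to 168 in the other libraries, and made up 66.8 CPM of its sum. The muscle regulator Myod1 had 35 against 1 to 16. Acta1 and Des had 234 and 246 counts there, against 34 and 28 in control replicate 1. Myog and Myf5 differed little between the control libraries, with 53 against 42 and 7 against 5 counts. No muscle marker was at 0 in all libraries. The part of muscle RNA in the Hoxa3 value of control replicate 2, or in the Hoxa values of 2KO, was not tested.

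**Figure D3:**
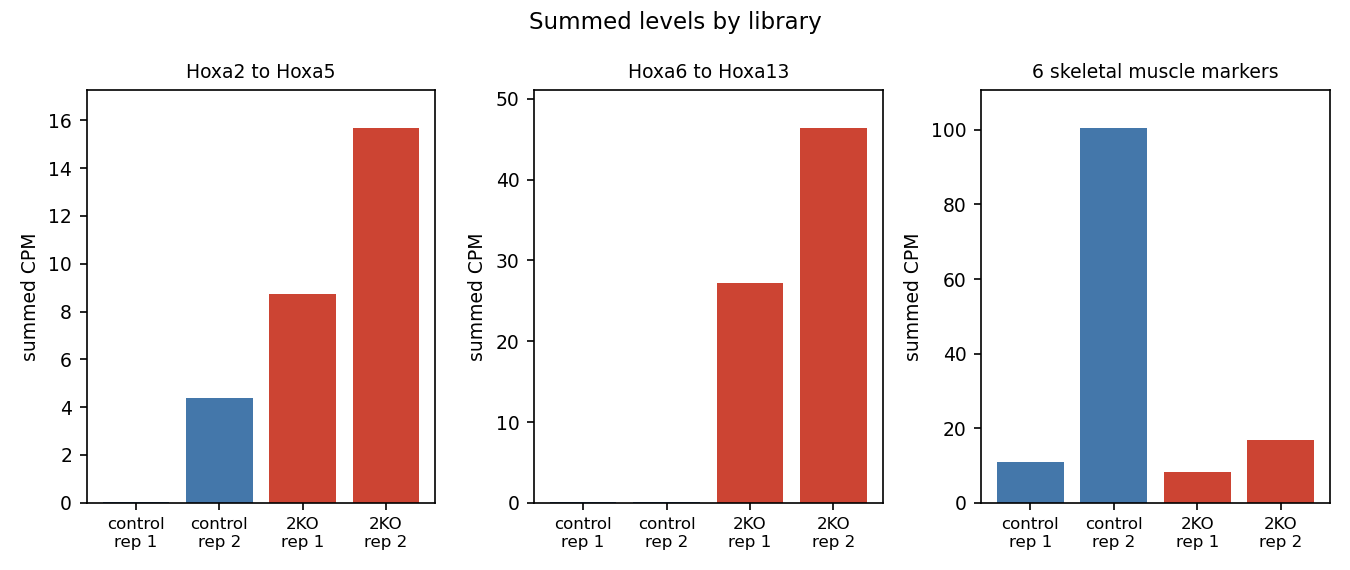
Summed CPM (y axis) per library of Hoxa2 to Hoxa5, of Hoxa6 to Hoxa13 without Mira, and of 6 skeletal muscle markers; each bar is a single library, blue for control and red for 2KO. Control replicate 2 reaches 4.40 CPM in the first panel and 100.5 CPM in the third, and 0.0587 CPM in the second.

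Markers of the other cell types that a sort could carry over were summed likewise. Summed levels of 8 mesenchyme markers were 317 and 389 CPM in control and 409 and 385 in 2KO, with 0 of 8 called (Dcn, the highest, at 124 and 117 against 187 and 121 CPM). Those of 5 endothelial markers were 24.8 and 18.6 against 29.5 and 51.1 CPM, with 0 called (Cdh5 at 8.53 and 9.80 against 12.5 and 29.7 CPM), and those of 5 immune markers 25.1 and 17.3 against 52.4 and 43.8 CPM, with Cd68 the one called, higher, of 4 tested. Of 6 neural and Schwann markers, Elavl3 was called higher and Tubb3 lower, and their sum was 25.6 and 18.5 against 14.6 and 15.7 CPM. Melanocyte markers summed to 4.34 to 8.56 CPM, with Tyr at 0, and red cell markers to 2.37 to 7.39 CPM, with Hba-a1 and Hbb-bs listed at 0. Of 7 epithelial markers, Krt5 and Krt14 were called lower and the others did not pass. Among the mesenchyme markers, none of them called, Twist1 was higher in both 2KO libraries (0.294 and 0.293 against 1.93 and 1.98 CPM). Col3a1 was lower in both (40.2 and 39.1 against 23.3 and 28.9 CPM), and the other mesenchyme markers overlapped between the groups. The endothelial and immune sums were higher in 2KO together with the cluster, but not every marker was. Cd68 alone made up most of the immune sum (21.3 and 11.9 against 47.2 and 39.0 CPM), while Lyz2 was at 1.57 and 1.06 against 0 and 0.148 CPM. Csf1r was higher in both 2KO libraries (2.01 and 2.88 against 5.05 and 3.86 CPM), and Ptprc and Tyrobp overlapped between the groups. In the endothelial list Pecam1, Cdh5 and Cldn5 were higher in both 2KO libraries (Pecam1 at 6.81 and 2.41 against 10.2 and 13.8 CPM). Kdr and Tek overlapped between the groups, Tek at 5.24 and 2.64 against 1.42 and 3.07 CPM. The part of these cell types in the Hoxa values was not tested. In sorted bulk RNA, more cells with the transcript and more transcript per cell cannot be told apart.

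The 2KO libraries were also compared with each other row by row. Over 16339 genes their counts differed with a chi-square of 22.7 per degree of freedom, so a difference beyond counting error was general in this pair and is not particular to the cluster. The CPM in replicate 2 divided by that in replicate 1 was 6.36 for Hoxa11 (95% counting interval 3.62 to 12.0). It was between 2.25 and 2.41 for Hoxa4, Hoxa5 and Hoxa10 and 1.63 for Hoxa7 (1.40 to 1.88), intervals that all lie above 1. For Hoxa3, Hoxa6, Hoxa9 and Hoxa13 the ratio was between 1.12 and 1.25, and for Mira 0.946, each with an interval that includes 1. These intervals cover counting error only, since amplified reads are not independent molecules.

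**Figure D4:**
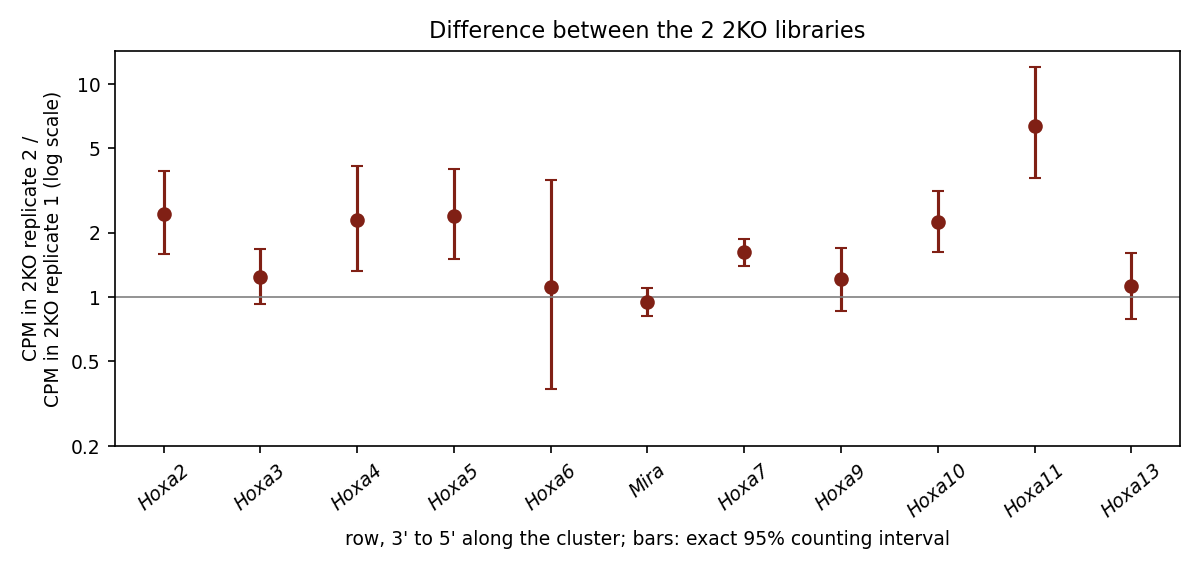
CPM in 2KO replicate 2 divided by CPM in 2KO replicate 1 for 11 rows in order along the cluster, on a log axis; bars are exact 95% counting intervals and the line marks a ratio of 1. Hoxa11 has the highest ratio, 6.36, and Mira the lowest, 0.946.

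Each Hoxa gene was then set beside its paralogs of the other clusters. In group 7 Hoxa7 reached 11.4 ± 4.38 FPKM in 2KO and Hoxb7 0.676 ± 0.0910, with no overlap between their libraries. In group 13 the Hoxa gene was not the highest: Hoxd13 reached 14.8 ± 1.53 FPKM, Hoxc13 3.70 ± 0.860, Hoxa13 2.99 ± 0.0834 and Hoxb13 2.65 ± 0.0477. In groups 9, 10 and 11, Hoxa9 (1.39 ± 0.161), Hoxa10 (1.49 and 2.92 by library) and Hoxa11 (1.41 ± 1.35 FPKM) were below Hoxd9 (7.24 ± 3.32), Hoxc10 (7.04 ± 1.31) and Hoxd11 (3.73 ± 0.614). Hoxb9 (2.75 ± 1.36) and Hoxc9 (2.31 ± 0.0469) were also above Hoxa9. Hoxd10 (1.61 ± 0.597) and Hoxc11 (0.374 ± 0.123) had lower means than Hoxa10 and Hoxa11, with overlapping libraries. In group 3 Hoxa3 and Hoxb3 were level, at 2.18 ± 0.277 and 2.14 ± 0.824 FPKM, and Hoxd3 was at 0.315 ± 0.0267. In group 4 Hoxa4 (1.44 ± 0.680 FPKM) lay among Hoxb4 (1.67 ± 0.404) and Hoxc4 (1.91 ± 0.638), with Hoxd4 at 0.269 ± 0.0922. In group 6 Hoxa6 (0.636 ± 0.232) was below Hoxc6 (3.47 ± 0.487) and above Hoxb6 (0.0589 ± 0.0102 FPKM), with no overlap of libraries. In group 5 Hoxa5 reached 1.22 ± 0.843 FPKM, Hoxc5 0.716 ± 0.358 and Hoxb5 0.0167 ± 0.0236. Of 11 Hoxa genes 10 were tested and 6 called higher, beside 3 of 6 tested Hoxb, 5 of 8 tested Hoxc (with Hoxc13 lower) and 5 of 7 tested Hoxd genes. Over all genes tested, edgeR called 7.00% higher and 4.92% lower. Hox rows near silent in control entered the test only through 2KO, so their direction was fixed and these counts do not rank the clusters. No test compared the clusters with each other.

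**Figure D5:**
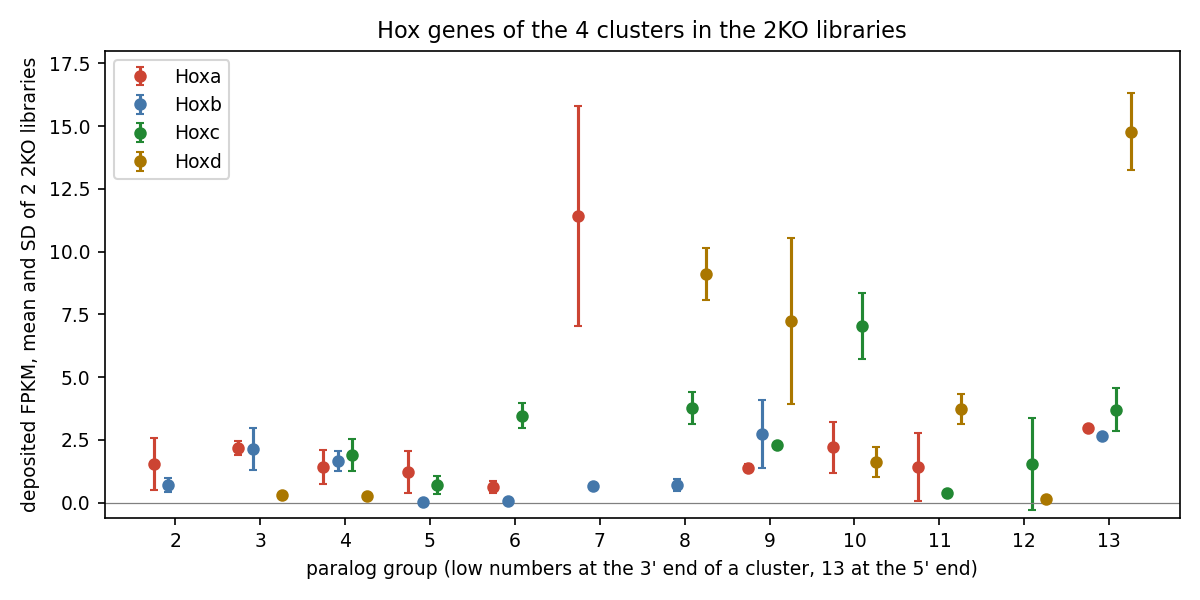
Deposited FPKM in 2KO (mean and SD of 2 libraries) of Hox genes of the 4 clusters by paralog group, from group 2 on. Hoxa7 at 11.4 and Hoxd13 at 14.8 FPKM are the highest points, and the Hoxa genes of groups 9 to 11 lie below at least 1 paralog each.

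The other transcripts annotated across the cluster were few. Hotairm1, an antisense RNA from the 3′ end of the cluster, had 16 and 9 counts in control and 95 and 107 in 2KO (log2 fold change 3.01, edgeR adjusted p = 0.0223). Its deposited FPKM overlapped between the groups: 2KO stood at 7.57 and 1.44, and control replicate 2 was above the lower of these. Hoxa11os, antisense to Hoxa11, had 0 counts in control and 17 and 71 in 2KO (edgeR adjusted p = 0.0186), and like Hoxa11 it was higher in 2KO replicate 2. Hoxaas2, Hoxaas3, Mir196b and Hottip had at most 9 counts in any library and were not tested. These rows were chosen by position alone.

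Outside the cluster 1 neighbour was called, a share near the 7.00% of all genes called higher. Of 10 genes on either side, all tested, only Creb5, which encodes a CREB-family factor and lies beyond Hibadh, rose, from 376 and 346 to 594 and 529 CPM (log2 fold change 0.64, edgeR adjusted p = 0.0165), a call that ended without 2KO replicate 1 (adjusted p = 0.0837). Evx1, the homeobox gene that caps the 5′ end of the cluster at 52313498 to 52318389, had 0 counts in control and 19 and 14 in 2KO (edgeR adjusted p = 0.0592). On the 3′ side Skap2, an adaptor protein gene, was at 15.6 and 24.1 CPM in control and 33.5 and 27.8 in 2KO (adjusted p = 0.161). Hibadh, beyond Evx1, had a log2 fold change of -0.13 with overlapping groups (adjusted p = 0.834). EdgeR called 0 of the 10 lower (1 at an unadjusted p under 0.05; 0 with DESeq2 and limma-voom), and their median log2 fold change was 0.26.

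Partners of Hox proteins were expressed in both groups. Of 9 TALE homeodomain cofactors, the Pbx, Meis and Pknox genes whose proteins bind DNA together with Hox proteins, all were tested and had counts in control, 2 rose and 0 fell, beside 7.00% higher and 4.92% lower over all genes (0 lower at an unadjusted p under 0.05, with DESeq2 or with limma-voom). Pknox2 rose from 0.931 and 1.23 to 8.34 and 8.01 CPM (log2 fold change 2.91, edgeR adjusted p = 0.00882). Meis2 rose from 185 and 178 to 308 and 276 CPM (0.69, adjusted p = 0.0135), a call that ended without 2KO replicate 1 (adjusted p = 0.0756). Of 10 genes of the MLL-type methyltransferase complexes, which oppose Polycomb at Hox genes, Dpy30, a shared subunit, fell from 43.3 and 59.9 to 20.6 and 28.6 CPM (log2 fold change -1.07, edgeR adjusted p = 0.0194), a call that ended without 2KO replicate 1 (adjusted p = 0.0713). That 1 lower call in 10 is near the 4.92% over all genes. EdgeR called 0 of the 10 higher (4 at an unadjusted p under 0.05; 1 with DESeq2 and 0 with limma-voom), and 9 did not pass, among them Kmt2a, the MLL1 gene, at 385 and 331 against 493 and 459 CPM (adjusted p = 0.0936). Median log2 changes were 0.32 for the 9 cofactors and 0.33 for the 10 complex genes.

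Genes whose pattern over the 4 libraries was nearest to that of the summed members were found among 11125 tested genes (mean of 5 CPM or more in the group where it was higher), by Euclidean distance of centred log2(CPM + 0.5). The nearest was Col2a1, the cartilage collagen, at a distance of 1.16, with 2.74 and 12.6 CPM in control and 122 and 128 in 2KO. Aldh1a2, an enzyme that makes retinoic acid, followed at 1.52, with 0.392 and 2.52 against 25.5 and 24.6 CPM. Hoxc10 came next at 1.67 (0 and 0.293 against 11.5 and 16.2 CPM), then Aff2 at 1.71 (0.147 and 2.76 against 15.3 and 18.2 CPM) and Kif1a at 1.86 (3.04 and 5.05 against 82.2 and 81.0 CPM).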

How the data were processed

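The authors deposited, per gene and library, whole-number read counts and, in a table of the whole series, FPKM values. The submitters' processing notes name HTSeq 0.6.1, DESeq2 1.6.3, Cufflinks 2.2.1 and TopHat2 2.0.13, with the build mm10. Not given in the sources used here are the role of each tool, the annotation, and whether counting used strand. Per the labels' protocols, RNA was amplified before sequencing as 100-nucleotide single reads, and for that reason floors and intervals here hold for counting error alone.

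Tests ran on the deposited counts, in edgeR 4.0.16 in R 4.3.3 (TMM scaling, filterByExpr, quasi-likelihood test of genotype, two-sided). Adjustment was over all 15336 of 24453 genes that were tested. CPM uses TMM-scaled library sizes. A gene with 0 control counts has a lower bound against 3 counts over the group; with 1 to 3 counts the ratio has an exact 95% counting interval. Alternatives were RLE and upper-quartile scaling, other filters, DESeq2 1.42.0, limma-voom 3.58.1, a block for replicate number, limma-trend run on log2(FPKM + 1) and log2(FPKM + 0.1), and each library left out. A sum of Hoxa7 and Mira and a fit without Rn45s were added after seeing the data. The scripts were tested on simulated data.

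The members, lists and the rule for named genes were chosen with earlier results of these data known. The rule names all members, Hoxa2, Ring1, Rnf2, called list members (at most 4 a list, or the 2 most abundant), abundant markers of other cell types and the 5 genes of nearest profile; further genes were chosen after their values were seen. Same-numbered libraries of the groups showed no shared deviation (correlation -0.023 over 15336 genes). Some results are not reported here. Coordinates and promoters are RefSeq's, GRCm38.p6, and exon overlaps GENCODE's, GRCm38.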

Additional observations from a re-analysis of the deposited data

How the results depend on the processing

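Of the gene-level values recomputed under each alternative, 209 kept direction and call, 25 lost the call, 8 gained it and 0 reversed. Of 10 member rows, 7 were called higher with RLE scaling, upper-quartile scaling, no count filter, DESeq2, without Rn45s and with the replicate block, 6 with limma-voom, with a filter of 1 CPM (which removes Hoxa11) and with Hoxa7 and Mira summed, and 5 to 9 with a library left out. On FPKM values 4 were called with either pseudocount, Hoxa9 losing its call and Hoxa5 and Hoxa11 falling under the filter, and 0 with no filter (8 at an unadjusted p under 0.05). Over all genes, the FPKM fits called 627 and 472 higher and 260 and 186 lower with pseudocounts of 1 and 0.1, and 0 and 0 with no filter (2336 and 1428 at an unadjusted p under 0.05); with no count filter 1242 were lower. With a library left out, 839 to 1643 genes were higher and 537 to 1104 lower. Control replicate 1 gave the highest counts, 1643 and 1104. With the block, a pairing that the labels do not explain, 1156 were higher and 880 lower.

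Cofactors called higher were 1 and 0 on filtered FPKM values, 0 unfiltered, and 1 to 3 with a library left out. MLL-complex genes called lower were 2 with no count filter, 0 on each set of FPKM values and 0 to 2 with a library left out, and those higher were 1 with DESeq2 and 0 to 1 with a library left out. Flanking genes called higher were 2 with DESeq2, 0 on each set of FPKM values and 0 to 2 with a library left out. The cause was not tested, beyond the rows that each filter removes. Hoxa6, with 16 counts in 2KO, was too low for the filter. A library left out leaves 1 in its group, which is then assumed to vary like the other group.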

Other observations

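Beyond the cluster, Evx1os, antisense to Evx1, had 0 counts in both control libraries, 1 in 2KO replicate 1 and 51 in 2KO replicate 2, and was not tested. Halr1, a noncoding gene on the 3′ side of the cluster (52102949 to 52113684), had 24 and 25 counts in control and 22 and 71 in 2KO (log2 fold change 0.85, edgeR adjusted p = 0.585). Both, like Hoxa11 and Hoxa11os, had more counts in 2KO replicate 2 than in replicate 1.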
